A study of Homo sapiens with 27 samples.

Results

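The genes described here are 8 targets of fibroblast growth factor (FGF) and extracellular signal-regulated kinase (ERK) signalling: the ETS transcription factors ETV4 and ETV5, the phosphatase DUSP6, the Sprouty inhibitors SPRY1, SPRY2 and SPRY4, and the Sprouty-related inhibitors SPRED1 and SPRED2. They were taken by symbol, with every probe that carries the symbol, which gave 16 probes of the 47323 on the array and 8 of its 20046 named genes. On the arrays, 13 of the 16 probes had a detection p-value below 0.01 on at least 2 arrays and entered the tests, so that each of the 8 genes was tested through at least 1 probe. Each gene is described by its brightest probe unless another is named, and levels are log2 signals after background correction and quantile normalization.

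Total RNA came from HuES6, a human embryonic stem cell line, during directed cardiac differentiation on Matrigel-coated plates in 2 time courses, with 13 arrays from time course 1 and 14 from time course 2. The IWP-2 arm was sampled on days 3, 4, 5, 6 and 8 of both time courses and on day 2 of time course 2 alone. IWP-2 blocks the secretion of WNT proteins, and time course 1 received it on days 2 and 3, whereas time course 2 received it on days 1 and 2, at a dose whose number the labels do not give. The arm without inhibitor was sampled on days 1, 2, 3, 4, 5, 6 and 8, and undifferentiated cells of the same line on day 0. All differentiating cells of both arms were induced for the first 24 hours with CHIR00921 (1 µM), BMP4 (1 ng/ml) and FGF2 (10 ng/ml). They had insulin on day 0, which was withdrawn from day 1. Every group is thus 2 arrays, 1 from each time course, except IWP-2 on day 2, which is 1 array. Added FGF2 was present only before the arms separated.

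FGF ligands bind receptor tyrosine kinases at the cell surface, and the RAS, RAF, MEK and ERK cascade carries the signal inwards. ETV4 and ETV5 are transcribed in response and pass the signal on to further genes. DUSP6 removes the activating phosphates of ERK, and Sprouty and SPRED proteins dampen the cascade upstream of ERK, so that transcripts of these genes are widely used as a readout of the pathway and are also its brakes. In the vertebrate embryo FGF signals act during gastrulation and again in the cardiac progenitors of the early heart.

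Because 6 of the 8 genes were higher together in the late IWP-2 arrays, the bases upstream of start sites are shown for DUSP6, SPRY2 and SPRY4, which stand for the phosphatase and the Sprouty genes. RefSeq promoters on GRCh38.p14 were matched for 6 of the 8 genes, with 10 start sites. ETV4 and ETV5 are named only. The windows hold the 250 bases before a start site, written 5′ to 3′ on the gene's strand, with capitals for the core GGAA of ETS factors on either strand. DUSP6 lies at chr12:89352502-89352751 (minus strand), SPRY2 at chr13:80341127-80341376 (minus strand, the farthest upstream of its 3 starts) and SPRY4 at chr5:142324248-142324497 (minus strand).
DUSP6: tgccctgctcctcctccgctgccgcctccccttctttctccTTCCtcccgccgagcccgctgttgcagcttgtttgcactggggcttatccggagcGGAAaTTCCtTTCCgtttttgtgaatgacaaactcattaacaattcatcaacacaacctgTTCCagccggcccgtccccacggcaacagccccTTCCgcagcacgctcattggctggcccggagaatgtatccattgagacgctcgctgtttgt
SPRY2: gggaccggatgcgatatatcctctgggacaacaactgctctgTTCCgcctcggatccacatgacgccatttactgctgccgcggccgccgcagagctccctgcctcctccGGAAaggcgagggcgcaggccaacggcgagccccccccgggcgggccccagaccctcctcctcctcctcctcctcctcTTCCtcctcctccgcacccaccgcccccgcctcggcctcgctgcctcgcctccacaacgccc
SPRY4: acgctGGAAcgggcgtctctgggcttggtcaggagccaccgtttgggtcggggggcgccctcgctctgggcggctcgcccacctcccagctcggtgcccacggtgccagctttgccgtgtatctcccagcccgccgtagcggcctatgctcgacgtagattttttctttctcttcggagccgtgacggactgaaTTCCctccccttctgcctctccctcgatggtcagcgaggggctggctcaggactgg
The core occurs 6 times before DUSP6, 3 times before SPRY2 and 2 times before SPRY4, against a median of 3 per window over 35116 RefSeq promoters, of which 92.7% hold at least 1. The longer form CCGGAA was found in 2 of the 10 windows, while 14.5% of all promoters hold it. It includes the shorter core. One match is in the SPRY2 window above. The other is 67 bases before the second start of SPRY1 (chr4:123398311-123398332, plus strand), with the match in capitals.
SPRY1: ctccgcagCCGGAAgggggccg
The AP-1 site TGANTCA and the cyclic AMP element TGACGTCA were found in 0 of the 10 windows, where 6.57% and 1.65% of all promoters hold them. The TCF/LEF core CTTTGA was found in 1 of the 10, the SPRY2 start farthest downstream, where 11.2% hold it. All were searched on both strands, and a match is a run of letters and not a bound site.

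Over all tested probes, the arrays of a group correlated between time courses at 0.953 to 0.985 in the 13 groups with 2 arrays. Single genes could still differ within a group, such as ETV5 on day 5 with IWP-2, at 7.23 and 10.61. The mean signal per array was between 293.1 and 349.5, except on the IWP-2 array of day 8 in time course 2, which was dimmer at 225.2. Precision is limited by the number of arrays and by their origin in only 2 time courses, and not by a read depth. Days of a time course are not known to be separate cultures. Of the pluripotency markers on the array, 9 of 9 were detected on both day 0 arrays. On days 6 and 8 the summed linear signal of 12 contractile markers was 43690 to 81470 in the 4 IWP-2 arrays, against 1385 to 2826 in the 4 arrays without inhibitor, and that of 10 fibroblast and mesenchyme markers was 1393 to 18950 with IWP-2, against 47950 to 66130 without. The part of these markers in the differences between the arms was not tested. In these bulk samples, fewer cells of a type and less RNA per cell cannot be told apart.

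Between days 3 and 4 and days 6 and 8, all 8 genes fell without inhibitor, where 12% of tested genes fell. Of the 8, 6 were higher with IWP-2 on the late days. For days 6 and 8 together, 6 of the 8 genes rose with IWP-2 and 0 fell, where 16.6% of the 13572 tested genes rose, 17.6% fell and 34.1% changed in either direction. The 6 were ETV5, DUSP6, SPRY1, SPRY4, SPRY2 and SPRED2. Since the 8 genes were chosen with earlier results of these data known, the shares over all genes do not test them as a set. The median log2 difference of the 8 genes was 2.07, beside -0.02 over all tested genes. On days 3 and 4, 0 of the 8 passed the test (limma, Benjamini-Hochberg), with 1 at an unadjusted p below 0.05 and a median of -0.15, while 1.94% of all tested genes were higher, 2.19% lower and 4.13% either.

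**Figure D1:**
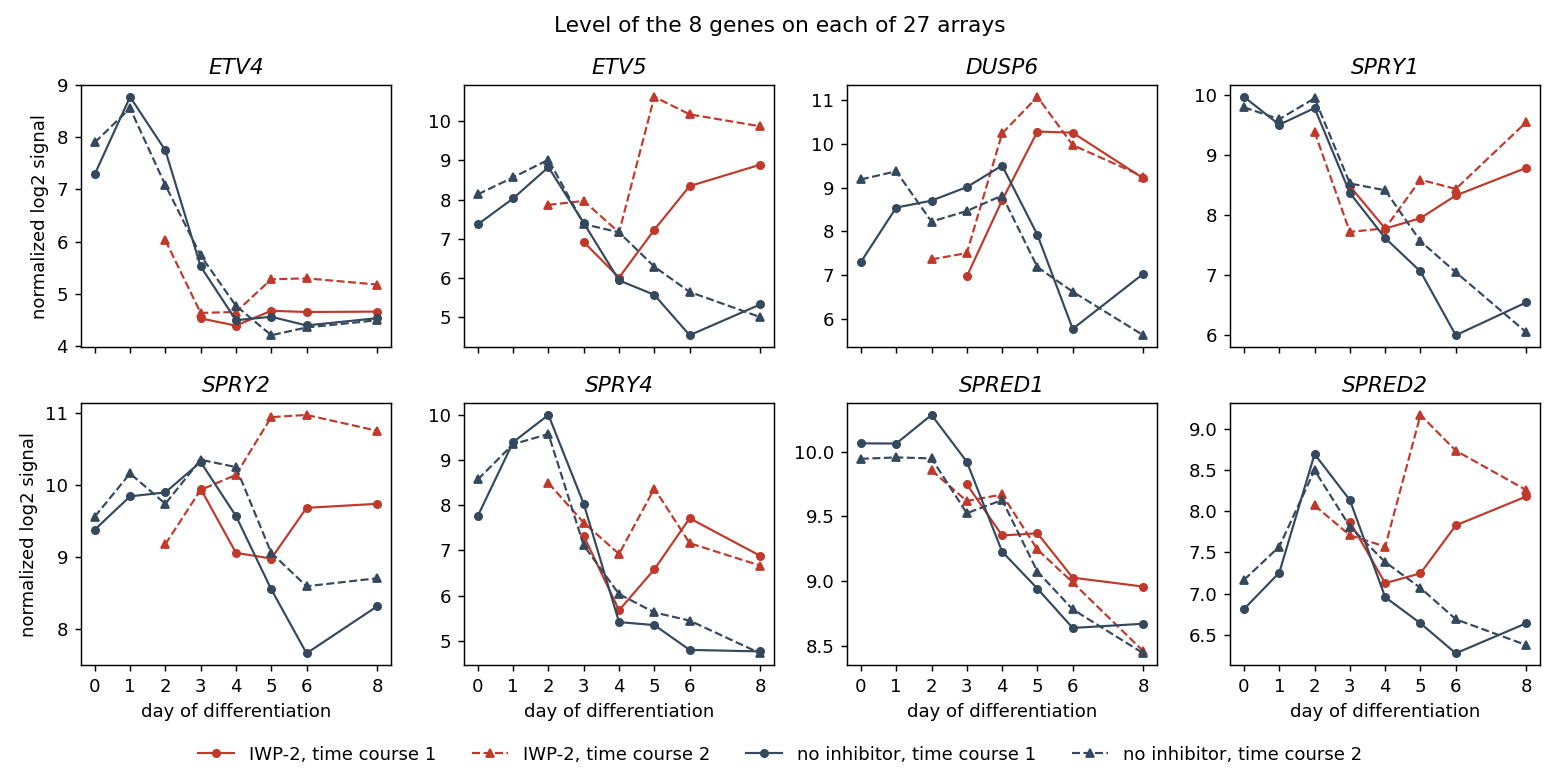
Normalized log2 signal of each gene (brightest probe) against day of differentiation, 1 point per array, red for IWP-2 and blue-grey for no inhibitor, solid for time course 1 and dashed for time course 2. Vertical scales differ between panels and do not compare genes. DUSP6 with IWP-2 is below the arm without inhibitor on day 3 and above it on day 5, while SPRED1 descends in both arms.

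ETV5, the ETS factor with the largest difference, was at log2 7.37 and 8.13 on day 0 in time courses 1 and 2 and at 8.03 and 8.57 on day 1. IWP-2 cells had 6.92 and 7.97 on day 3, 6.01 and 7.16 on day 4, 7.23 and 10.61 on day 5, 8.34 and 10.17 on day 6, and 8.89 and 9.86 on day 8. Without inhibitor it was at 8.83 and 9.02 on day 2, 7.40 and 7.38 on day 3, 5.94 and 7.17 on day 4, 5.58 and 6.29 on day 5, 4.55 and 5.65 on day 6, and 5.33 and 5.01 on day 8. The arms overlapped on days 3 and 4 and did not overlap from day 5 on. The mean of days 6 and 8 was 9.32 with IWP-2 and 5.14 without, a log2 difference of 4.18 ± 0.40 (SE, 4 arrays each), which is 18.1-fold (limma, adjusted p = 6.9e-07). By time course the difference was 3.68 (time course 1) and 4.69 (time course 2), and it was 2.70 when the background was not corrected.

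ETV4, the related ETS factor, had its highest levels in the first days. It was at 7.29 and 7.90 on day 0 and at 8.77 and 8.56 on day 1, and without inhibitor was at 7.75 and 7.08 on day 2. The rise from day 0 was 1.07 ± 0.27 (adjusted p = 0.043), a call lost in 19 of 36 alternative settings, and the fall from day 1 to day 2 was -1.25 ± 0.27 (adjusted p = 0.0065). From day 4 its probe was detected on 0 of the arrays without inhibitor and on 3 of those with IWP-2, all in time course 2. There the levels with IWP-2 were 5.28 on day 5, 5.30 on day 6 and 5.18 on day 8, against 4.21, 4.36 and 4.49 without inhibitor, where it was not detected. The fitted difference of days 6 and 8 was 0.50 ± 0.19 and missed the threshold (adjusted p = 0.053). Detection was on 2 of 4 IWP-2 arrays and 0 of 4 without inhibitor. Set against the lowest detected signal, ETV4 was 1.11-fold higher. That value averages in undetected IWP-2 arrays and is not a strict minimum. The term passed in 10 of 37 alternative settings, with adjusted p between 0.025 and 0.29 over all of them.

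DUSP6, the ERK phosphatase, crossed between the arms. It was at 7.30 and 9.18 on day 0 and at 8.54 and 9.37 on day 1. In the IWP-2 arm it was at 6.97 and 7.50 on day 3, 8.71 and 10.23 on day 4, 10.28 and 11.07 on day 5, 10.25 and 9.97 on day 6, and 9.21 and 9.25 on day 8. Without inhibitor it was at 9.01 and 8.46 on day 3, 9.50 and 8.82 on day 4, 7.92 and 7.18 on day 5, 5.77 and 6.62 on day 6, and 7.03 and 5.63 on day 8. On day 3 both IWP-2 arrays lay below both arrays without inhibitor, on day 4 the arms overlapped, and from day 5 both IWP-2 arrays lay above. The day 3 difference of -1.50 ± 0.59 did not pass (adjusted p = 0.44), while that of day 5, at 3.12 ± 0.59, did (adjusted p = 0.0030). Over days 6 and 8 DUSP6 averaged 9.67 with IWP-2 and 6.26 without, a difference of 3.41 ± 0.42 or 10.6-fold (adjusted p = 1.0e-05), at 3.33 and 3.49 in the 2 time courses.

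**Figure D2:**
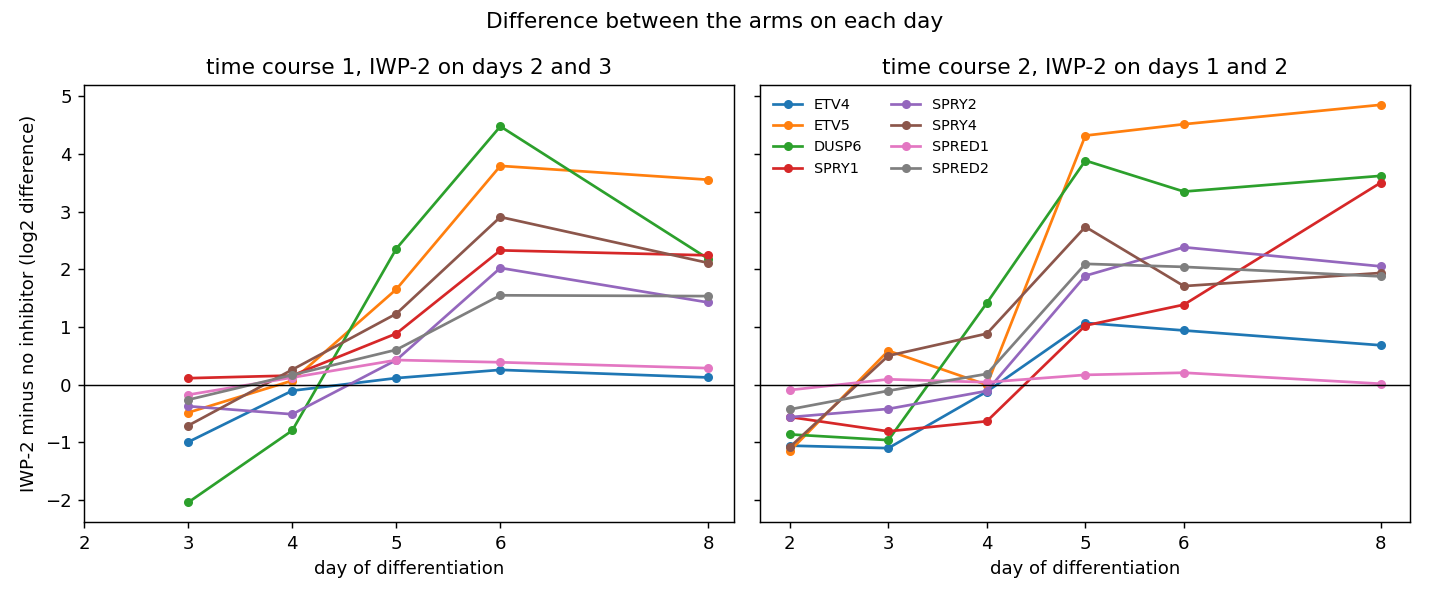
IWP-2 minus no inhibitor (log2 difference of 2 arrays) on each day, 1 line per gene, time course 1 on the left and time course 2 on the right. On day 3 the differences run from -2.04 to 0.11 in time course 1 and from -1.10 to 0.59 in time course 2, where -1.10 is ETV4, not detected with IWP-2, and on days 5, 6 and 8 all 8 are above 0 in both. Over all tested genes the median on those 3 days lay between -0.029 and 0.0046.

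The Sprouty genes code for proteins that inhibit the cascade downstream of receptor tyrosine kinases. SPRY1 was at 9.96 and 9.79 in undifferentiated cells, and without inhibitor was at 9.50 and 9.59 on day 1 and at 9.78 and 9.94 on day 2. The IWP-2 arrays had 8.32 and 8.43 on day 6 and 8.78 and 9.54 on day 8, against 5.99 and 7.04 on day 6 and 6.54 and 6.04 on day 8 without inhibitor. All 4 late IWP-2 arrays were above all 4 late arrays without inhibitor, and the difference was 2.37 ± 0.24 (adjusted p = 1.1e-06), at 2.29 and 2.45 in the 2 time courses.

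SPRY2 lay between 9.38 and 10.16 on days 0 and 1. With IWP-2 it was at 8.98 and 10.95 on day 5, 9.69 and 10.98 on day 6 and 9.74 and 10.76 on day 8. Without inhibitor it was at 8.55 and 9.06 on day 5, 7.66 and 8.59 on day 6 and 8.32 and 8.71 on day 8. The late difference was 1.97 ± 0.27 (adjusted p = 3.0e-05). Within the IWP-2 arm its level on days 6 and 8 did not pass against days 3 and 4, at 0.52 ± 0.27, while without inhibitor it fell by 1.81 ± 0.27 (adjusted p = 0.00014).

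SPRY4 had its highest level on day 2 without inhibitor, at 9.99 and 9.57, against 7.76 and 8.57 on day 0. Its difference between day 1 and day 0, at 1.21 ± 0.46, did not pass for the brightest probe (adjusted p = 0.27). Its second probe passed, at 1.10 ± 0.27 (adjusted p = 0.036). By days 6 and 8 SPRY4 was at 7.71, 7.16, 6.88 and 6.66 with IWP-2, and at 4.80, 5.45, 4.77 and 4.72 without, where it was detected on 2 of 4 arrays. The difference was 2.17 ± 0.33 (adjusted p = 7.9e-05), with no overlap between the arms. Without background correction it was 1.01.

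The SPRED proteins bind RAS regulators at the membrane and limit the activation of RAF. SPRED2 was at 8.69 and 8.49 on day 2 without inhibitor, against 6.81 and 7.17 on day 0. Its step from day 1 to day 2, at 1.18 ± 0.37, missed the threshold (adjusted p = 0.058). By days 6 and 8 it was at 7.83, 8.73, 8.18 and 8.25 with IWP-2 and at 6.28, 6.69, 6.64 and 6.37 without, a difference of 1.75 ± 0.26 (adjusted p = 7.7e-05). SPRED1 changed with time and not detectably with the inhibitor. On day 8 it was at 8.96 and 8.46 with IWP-2 and at 8.67 and 8.44 without, and on day 0 it was at 10.07 and 9.95. Against day 0 it fell by 1.30 ± 0.20 with IWP-2 (adjusted p = 5.6e-05) and by 1.45 ± 0.20 without (adjusted p = 2.1e-05). The IWP-2 difference on days 6 and 8 was 0.23 ± 0.14 (adjusted p = 0.25), above 0 in both time courses at 0.34 and 0.11, and the arms overlapped.

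**Figure D3:**
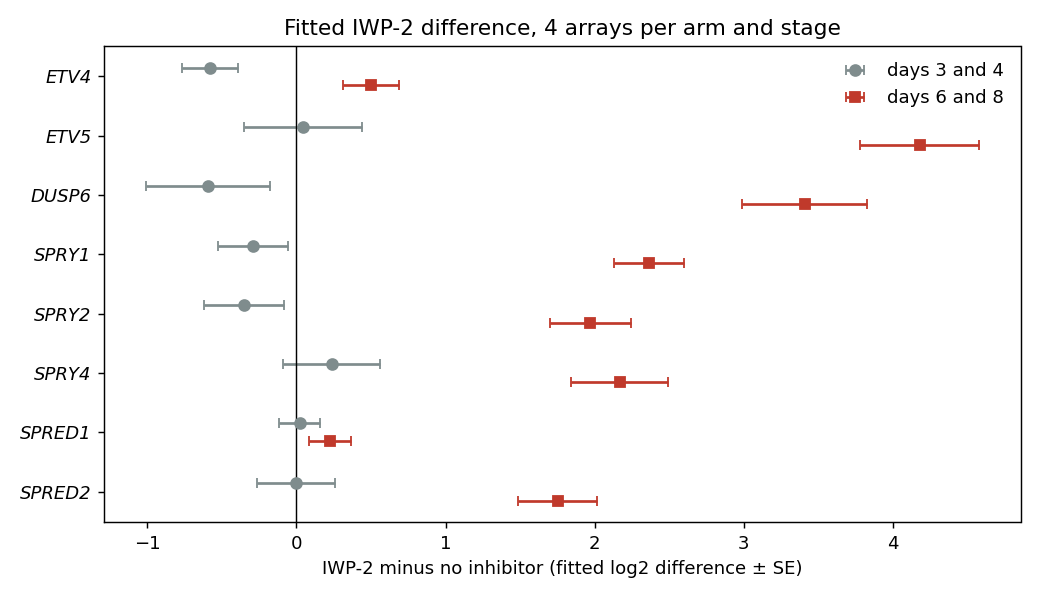
Fitted log2 difference, IWP-2 minus no inhibitor, with its standard error, for days 3 and 4 (grey circles) and for days 6 and 8 (red squares), 4 arrays per arm at each stage. The early differences lie between -0.59 and 0.24, and the late ones between 0.23 for SPRED1 and 4.18 for ETV5.

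The change of the IWP-2 difference between the 2 stages was tested as a term of its own. It passed for 7 of the 8 genes, all toward higher late differences, where 8.68% of tested genes passed in that direction, 8.6% in the other and 17.3% in either. The fitted terms ran from 1.08 ± 0.27 for ETV4 (adjusted p = 0.011), whose probe was below detection on most of these arrays, to 4.14 ± 0.56 for ETV5 (adjusted p = 0.00014), with a median of 2.13 over the 8 genes and -0.05 over all genes. For ETV4 and SPRY4 the term did not pass without background correction, at 0.35 (adjusted p = 0.14) and 0.91 (adjusted p = 0.076). SPRED1 was the exception, at 0.20 ± 0.20.

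Each day was also fitted alone, a comparison chosen after the data were seen. On day 3 and on day 4, 0 of the 8 genes passed, with 2 and 0 at an unadjusted p below 0.05 and with 1.05% of tested genes called on day 3 (0.42% higher, 0.634% lower) and 3.01% on day 4 (1.41% higher, 1.59% lower). On day 5, 4 genes rose with IWP-2, where 5.12% of tested genes rose, 4.52% fell and 9.64% changed in either direction: DUSP6, ETV5 at 2.99 ± 0.56 (adjusted p = 0.0028), SPRY4 at 1.98 ± 0.46 (adjusted p = 0.013) and SPRED2 at 1.35 ± 0.37 (adjusted p = 0.032). SPRY1 and SPRY2 had 0.96 ± 0.33 and 1.16 ± 0.38 on day 5 and passed from day 6. In time courses 1 and 2 the day 5 difference was 1.23 and 2.74 for SPRY4 and 0.61 and 2.10 for SPRED2. The second SPRY4 probe did not pass on day 5, at 0.78 ± 0.27 (limma, adjusted p = 0.085). Taken singly, day 6 and day 8 each had 6 of the 8 genes higher with IWP-2 and 0 lower, beside 7.48% higher, 7.42% lower and 14.9% called on day 6, and 12.4% higher, 12.2% lower and 24.6% called on day 8. The contractile markers summed to 29310 and 75220 in the day 5 IWP-2 arrays, against 1703 to 3505 without inhibitor, and the part of this in the day 5 differences was not tested.

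At the earliest point, day 2, the single IWP-2 array had all 8 genes below the day 2 array without inhibitor of the same time course, by 0.09 for SPRED1 to 1.15 for ETV5. The median difference of the 8 was -0.71, beside -0.01 over all tested genes. The share of all genes that were lower on this pair was not counted. ETV4 was at 6.03 with IWP-2 and 7.08 without, SPRY4 at 8.49 and 9.57, and DUSP6 at 7.36 and 8.22. In the fit, which assumes that the lone array varies like those of other groups and sets it against both day 2 arrays without inhibitor, 0 of the 8 passed (limma), 3 had an unadjusted p below 0.05, and 0.28% of tested genes passed (0.0589% higher, 0.221% lower). ETV4 had -1.46 ± 0.33 (adjusted p = 0.10) by its brightest probe. It ran from -1.94 (adjusted p = 0.027) without the day 2 control array of the same time course to -1.06 without that of the other, with adjusted p up to 0.81 over the arrays left out, while its dimmer probe passed at -1.58 ± 0.30 (adjusted p = 0.032). In the same fit IER3 was lower by 2.32 ± 0.40. It was picked by its test from the 10 tested ERK-responsive early genes, of which no other passed. On day 3, 7 of 8 genes were lower with IWP-2 in time course 1 and 5 of 8 in time course 2. Their medians were -0.43 and -0.26, beside 0.03 and 0.02 over all tested genes. How many of all tested genes were lower on these pairs was not counted, and 0 of the 8 passed on day 3 alone. ETV4 was detected on neither of the 2 IWP-2 arrays of day 3 and on both arrays without inhibitor, at 5.53 and 5.74.

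The time courses differed in both run and inhibitor window, which cannot be told apart. The IWP-2 difference of days 3 to 8 was larger in time course 2 for 6 of the 8 genes. The term fitted for this also draws on the arrays without inhibitor of days 0 to 2, so it is not that difference alone. For DUSP6 the differences were 1.24 and 2.26 in time courses 1 and 2, and the term was 0.56. The median term was 0.47, beside -0.01 over all genes. In its test (limma) 0 of 8 passed and 3 had an unadjusted p below 0.05. Of all tested genes 0.56% passed (0.125% higher, 0.435% lower). ETV5 had the largest term, 1.15 ± 0.36 (adjusted p = 0.12), which was 0.73 without the IWP-2 array of day 5 in time course 2. The number of genes called over the whole array for this term ran from 5 to 376 as single arrays were left out. On day 5 time course 2 had an ETV5 difference of 4.32 and time course 1 one of 1.66, and for SPRY2 they had 1.89 and 0.43.

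Time was then compared within each arm. Without inhibitor, all 8 genes fell between days 3 and 4 and days 6 and 8, where 12% of tested genes fell, 12.7% rose and 24.7% changed in either direction. The falls of the other 7 genes ran from -0.94 ± 0.14 for SPRED1 (adjusted p = 0.00013) to -2.69 ± 0.42 for DUSP6 (adjusted p = 0.00021), and the median of all 8 was -1.76, beside 0.00 over all genes. ETV4, which no late array without inhibitor detected, was lower too (adjusted p = 0.015), by 1.26-fold when set against the lowest detected signal. That value is not a strict minimum, since ETV4 was detected on day 3 and not on day 4. With IWP-2 over the same days 3 of the 8 rose and 1 fell, where 17.1% of tested genes rose, 18.2% fell and 35.4% changed. ETV5 rose by 2.30 ± 0.40, DUSP6 by 1.32 ± 0.42 (adjusted p = 0.022) and SPRY1 by 0.84 ± 0.24 (adjusted p = 0.011), and SPRED1 fell by 0.74 ± 0.14. The late arrays without inhibitor enter both this comparison and the one between arms on days 6 and 8.

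The call for DUSP6 within the IWP-2 arm was lost with no detection filter (adjusted p = 0.061). It was also lost when any one of the time course 1 arrays of days 3, 4, 6 and 8 was left out, with differences of 0.95 to 1.28, and that of SPRY1 was lost without the time course 2 array of day 3 or of day 8, at 0.57 and 0.69. Without inhibitor, the falls of ETV4 and ETV5 did not pass without background correction (adjusted p = 0.14 and 0.093). That of ETV4 was also lost without the time course 2 array of day 6 or of day 8 (adjusted p = 0.055 and 0.060).

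Against undifferentiated cells, 6 of the 8 genes were lower on day 8 without inhibitor and 0 were higher, where 21.1% of tested genes were lower, 21.2% were higher and 42.3% changed. The median was -2.25, beside -0.01 over all genes. SPRY1 fell by 3.59 ± 0.33, SPRY4 by 3.42 ± 0.46, ETV5 by 2.58 ± 0.56 and DUSP6 by 1.91 ± 0.59 (adjusted p = 0.016). ETV4, not detected on either day 8 array without inhibitor, was at least 7.05-fold lower (adjusted p = 1.6e-07). By time course the DUSP6 difference was -0.27 (time course 1) and -3.56 (time course 2). It did not pass without the day 0 array of time course 2, at -0.99, or without the day 8 array of time course 2, at -1.06. With IWP-2 on day 8, 2 of the 8 genes were higher than on day 0 and 3 were lower, where 21.8% of tested genes were higher, 21.9% were lower and 43.7% changed. ETV5 was higher by 1.62 ± 0.56 (adjusted p = 0.029) and SPRED2 by 1.23 ± 0.37 (adjusted p = 0.014), while ETV4 fell by 2.68, SPRY4 fell by 1.39 and SPRED1 fell as given above. Under median scaling the calls of ETV5 and SPRED2 were lost, at 1.32 (adjusted p = 0.070) and 0.94 (adjusted p = 0.060), with the sign kept. The ETV5 call was also lost without any one of the 4 arrays, at 1.51 to 1.73. That of SPRED2 was lost without either day 0 array, at 1.22 and 1.23, or the time course 1 array of day 8, at 1.09, and that of SPRY4 without the time course 2 array of day 0 or of day 8, at -1.10 and -1.13. Both comparisons use the same 2 day 0 arrays.

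Between days 0 and 1, 1 of the 8 genes rose, ETV4, and 0 fell, where 0.987% of tested genes rose, 1.68% fell and 2.67% changed. The dimmer ETV4 probe rose by 1.08 ± 0.24 (adjusted p = 0.023). For the brightest probe the settings that lost the call included the fit without the replicate block (adjusted p = 0.083), the authors' processed values (adjusted p = 0.14) and array weights (adjusted p = 0.087). The median of the 8 was 0.54, beside 0.01 over all genes. Between days 1 and 2 without inhibitor, 1 of 8 fell, again ETV4, and 0 rose, where 4.55% fell, 6.34% rose and 10.9% changed. That call was lost without the time course 1 array of day 1, at -1.05, or the time course 2 array of day 2, at -0.81. When the 14 conditions were ordered by mean level, between 8 and 12 of the 13 neighbouring pairs overlapped between their arrays for each gene. How often this occurs over all tested genes was not counted, so the order describes these genes only. The highest condition stood clear of the next for ETV4 on day 1 and for SPRY4 on day 2 without inhibitor. It did so narrowly for DUSP6 on day 5 with IWP-2 (lower array 10.28, against 10.25 on day 6), and it overlapped the next for the other 5 genes. At the low end the lowest pair of conditions overlapped for the other 7 genes and was only narrowly apart for SPRY4 without inhibitor. Its higher array of day 8 was at 4.77, against 4.80 for the lower array of day 6. Neither of these arrays, both of time course 1, detected it.

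The second probes of 5 genes followed the brightest ones over the 27 arrays, with Pearson correlations of 0.918 for ETV5, 0.931 for DUSP6, 0.933 for SPRY4, 0.977 for SPRY1 and 0.992 for ETV4. These correlations are across arrays that share their RNA. For days 6 and 8 the second probe of SPRY1 rose by 2.23 ± 0.24 and that of SPRY4 by 0.80 ± 0.19. That SPRY4 probe was detected on 3 of 4 IWP-2 arrays and 0 of 4 without inhibitor. Set against the lowest detected signal, it was 1.39-fold higher. That value averages in an undetected IWP-2 array and is not a strict minimum. The second probe of ETV5 was at least 3.11-fold higher with IWP-2 and that of DUSP6 at least 3.23-fold higher, since neither was detected without inhibitor. The second probe of ETV4 had 0.26 ± 0.17 and did not pass. The other 3 probes, 1 of SPRY1 and 2 of SPRY4, were detected on 0, 1 and 0 arrays and were not tested.

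**Figure D4:**
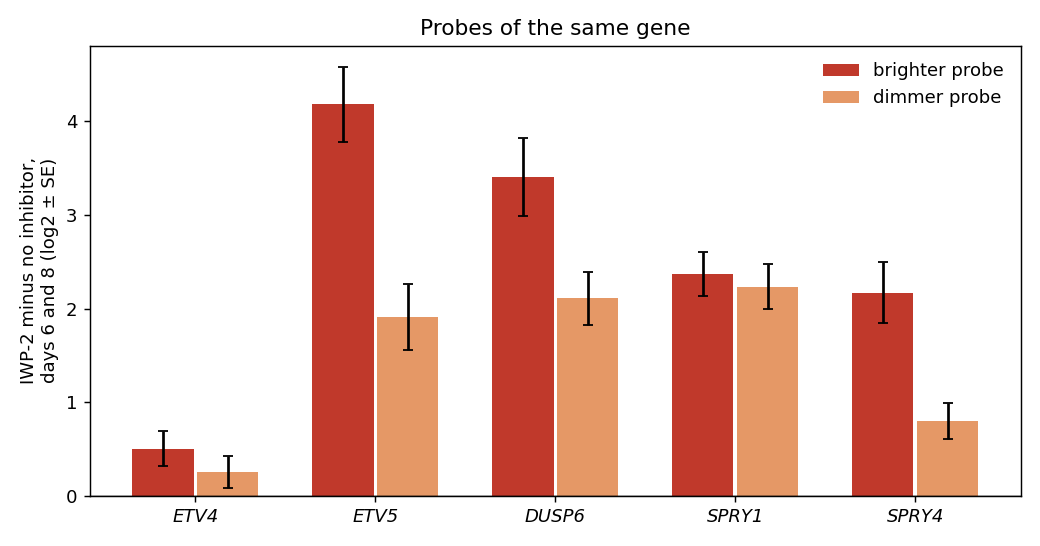
Log2 difference, IWP-2 minus no inhibitor on days 6 and 8, with its standard error, for the brighter (red) and the dimmer (orange) tested probe of the 5 genes with 2 tested probes. The probes of a gene share the sign in all 5, and the dimmer probe of ETV5 has a fitted value of 1.91, not a bound, where the brighter is at 4.18.

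Over the 27 arrays the 28 pairs of genes correlated between 0.159, for ETV4 and DUSP6, and 0.893, for ETV5 and SPRED2, with a median of 0.643. These are descriptions over arrays that share days and time courses. Of the 8 genes, the partner most like SPRY1 was SPRY4 (0.863), and that of DUSP6 was SPRY2 (0.681). Over all tested genes, those most like the mean of the 8 profiles were MRPS28 (0.918), ADD2 (0.911), WDR12 (0.876), UQCC5 (0.875) and MPP2 (0.871).

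The pathway around these genes was read from lists of FGF family genes, receptors, cascade members, other feedback genes and ERK-responsive early genes. Of 22 FGF family genes, 14 were tested, of which 4 rose and 1 fell with IWP-2 on days 6 and 8, where 16.6% of all tested genes rose and 17.6% fell. The list holds receptor ligands and also the intracellular members FGF11, FGF12, FGF13 and FGF14. FGF8, a ligand of the embryonic heart field, was at 6.22, 6.82, 6.45 and 5.81 with IWP-2 and between 4.16 and 4.29 without inhibitor, where 0 of 4 arrays detected it. It was at least 2.89-fold higher (limma, adjusted p = 0.00035). On day 5 it was at 6.06 and 8.06 with IWP-2 and at 4.24 and 4.34 without. FGF11 and FGF13, intracellular members of the family that do not act through FGF receptors, rose by 1.66 ± 0.24 and 1.41 ± 0.15. Both are among the 4 that rose, so that count is not one of receptor ligands alone. FGF2, the ligand that was also added to the medium at the start, fell by 1.43 ± 0.23.

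Of 6 tested FGF receptor genes, 0 rose and 3 fell with IWP-2 on days 6 and 8, beside the same 17.6% of all tested genes that fell. FGFR2 was at 4.96, 4.31, 4.56 and 4.62 with IWP-2 and at 6.52, 6.54, 6.18 and 6.78 without, a difference of -1.89 ± 0.25 (adjusted p = 2.5e-05). FGFR3 was at 11.10, 10.09, 10.39 and 10.10 with IWP-2 and at 11.59, 11.14, 11.32 and 11.65 without, and FGFR4 differed by -0.68 ± 0.17. FGFR4 was at 5.10, 4.30, 4.46 and 4.44 with IWP-2 and at 5.34, 4.75, 6.12 and 4.80 without, so its arms overlapped. Most IWP-2 values of FGFR2 and FGFR4 lay below the lowest detected signal of those arrays (4.81 to 4.98), which limits their size. By their means, these 3 receptor genes were lower on the same IWP-2 arrays on which the 6 feedback genes were higher.

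Of 8 tested members of the list of other feedback genes, 2 rose and 3 fell, beside 34.1% of all tested genes called in either direction. DUSP5, a nuclear ERK phosphatase, was at 9.06, 10.25, 9.97 and 9.95 with IWP-2 and at 6.34, 6.60, 7.20 and 6.14 without, a difference of 3.24 ± 0.45 (adjusted p = 3.8e-05). It was also the only gene of this list called on days 3 and 4, at 1.71 ± 0.45 (adjusted p = 0.043). LRIG1, an inhibitor of receptor tyrosine kinases, rose by 1.49 ± 0.21. FLRT3, a membrane protein that binds FGF receptors, fell by 3.17 ± 0.56, and ERRFI1, an inhibitor of the EGF receptor, fell by 1.13 ± 0.14. Of 16 cascade members 3 rose and 2 fell, near the 16.6% and 17.6% over all tested genes. MAP2K1, which codes for MEK1, rose by 0.98 ± 0.12. Of 10 ERK-responsive early genes 1 rose, FOS, by 1.29 ± 0.36, and 0 fell. The median differences of these lists were 0.18 for FGF family genes, -0.54 for receptors, -0.15 for other feedback genes, -0.06 for the cascade and 0.08 for early genes, beside -0.02 over all genes.

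**Figure D5:**
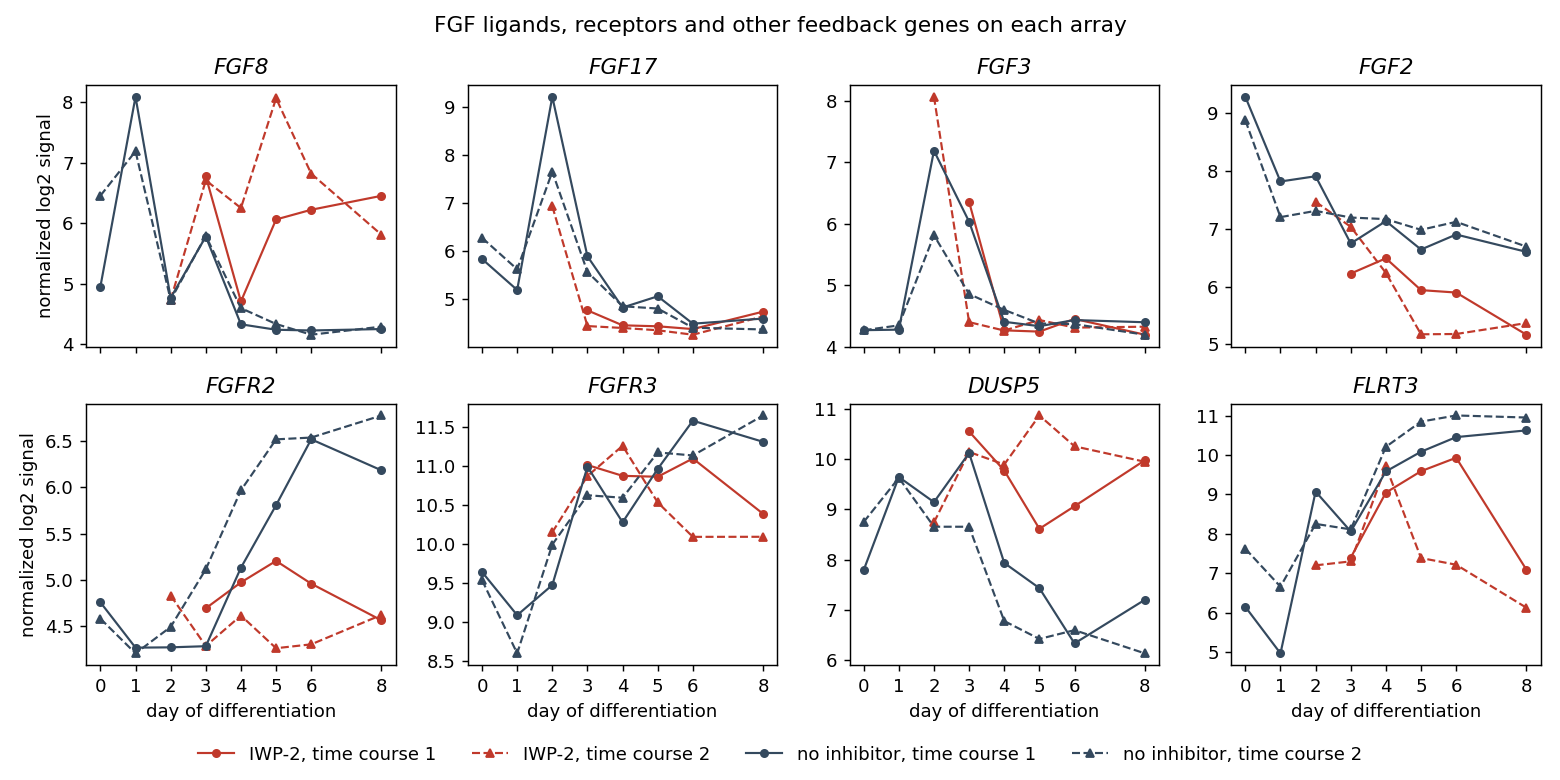
Normalized log2 signal of 4 FGF ligands (FGF8, FGF17, FGF3, FGF2), 2 receptors (FGFR2, FGFR3) and 2 other feedback genes (DUSP5, FLRT3) on each array, by day, with the colours and lines of the plot of the 8 genes. FGF8 has an early peak on day 1 and is at 4.74 on the IWP-2 array of day 2. On days 5 to 8 it is at 5.81 to 8.06 with IWP-2, where the arm without inhibitor is at 4.16 to 4.34.

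In the first days different ligands moved in different directions. From day 0 to day 1 FGF19 rose by 2.13 ± 0.18 and FGF2 fell by 1.57 ± 0.32. From day 1 to day 2 without inhibitor FGF17 rose by 3.03 ± 0.31 and FGF3 was at least 3.00-fold higher, while FGF8 was at least 6.39-fold lower and FGF19 fell by 1.64 ± 0.18. FGF8 was at 4.77 and 4.73 on day 2, against 8.09 and 7.19 on day 1. Of the early genes, EGR1 fell by 3.12 ± 0.38 and IER3 rose by 2.14 ± 0.32 from day 0 to day 1. On days 3 and 4 FGF19 and IER3 (-1.35 ± 0.23) were lower with IWP-2, while FGF10 was higher. Set against the lowest detected signal, FGF19 differed by 1.32-fold and FGF10 by 1.40-fold. Both values average in an undetected array of the brighter arm and are not strict minima.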

How the data were processed

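Biotin-labelled copies of total RNA were, per the labels' protocols, read on Illumina bead arrays. The authors deposited unnormalized intensities, each with its detection p-value, and a table of processed intensities on a linear scale whose steps are not given in the sources used here and whose columns share 1 median within each time course. GenomeStudio is named, with no version, per the submitters' processing notes. No aligner or genome build applies.

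The deposited intensities of 27 arrays were corrected with normexp from the detection p-values, quantile normalized and taken to log2 after an offset of 16 (limma 3.58.1, R 4.3.3). Of 47323 probes, 30113 carry 1 gene symbol in the platform annotation, 8 carry several and 17202 are not listed. The 23933 probes detected below 0.01 on at least 2 arrays were fitted with 14 day-by-arm means and the time course as a replicate block (12 residual degrees of freedom), moderated with eBayes and adjusted by Benjamini-Hochberg over all these probes, at a threshold of 0.05. A gene is its tested probe with the highest mean, which gives 13572 genes. A probe not detected on any array of one side has a bound, written "at least", from the lowest detected signal of those arrays. The other side was averaged over all its arrays. Where some of those were undetected, the value is not a strict minimum and is not written "at least". The fit was run on simulated data with independent noise per array and no time course effect. That run cannot show how the p-values hold where arrays share a time course. Time course numbers pair the arrays: the difference between time courses correlated between groups in 78 of 78 pairs above 0.1 (0.137 to 0.785).

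The labels do not say that days are separate cultures, so p-values measure the spread between arrays. The 8 genes, the gene lists and the marker lists were chosen with earlier results of these data known. The text names all 8 genes and, of each other list, up to 4 passing genes per comparison with the largest absolute difference, each by its brightest probe. Alternatives were no replicate block, median scaling, no background correction, the authors' processed intensities, no detection filter, detection on at least 6 arrays, 1 probe per gene, array weights, a variance trend, 1 value per time course, and leaving out each array. Fits of single days were added after seeing the data.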

Additional observations from a re-analysis of the deposited data

Results flagged for a closer look

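The IWP-2 difference on days 6 and 8 departed from that on days 3 and 4, by the test of the change itself, for 7 of the 8 genes. The change was 1.08 for ETV4, 4.14 for ETV5, 4.00 for DUSP6, 2.66 for SPRY1, 2.33 for SPRY2, 1.93 for SPRY4 and 1.75 for SPRED2, all on the log2 scale and all toward higher with IWP-2 at the later stage, and each was above 0 in both time courses. Contractile, fibroblast, endoderm and proliferation markers moved between the same arrays: 9 endoderm markers summed to 181.7 to 1092 with IWP-2 and 971 to 9939 without on days 6 and 8, and 12 proliferation markers summed to 1254 to 4335 with IWP-2 and 3020 to 7819 without on the same days. Their part in the change was not tested.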

How the results depend on the processing

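The 6 genes that rose with IWP-2 on days 6 and 8 passed in the same direction under all alternatives run for that comparison, and leaving out single arrays gave 6 to 7 genes called. Ranges over left-out arrays were 0 to 1 for day 1 against day 0, 0 to 2 for day 2 against day 1, 5 to 7 for day 8 against day 0, 3 to 5 for IWP-2 day 8 against day 0, 7 to 8 without inhibitor and 3 to 5 with IWP-2 for the late against the early days, 0 to 1 on day 2, 0 to 0 on days 3 and 4, 7 to 7 for the change of the IWP-2 difference and 0 to 1 for the time course term. For day 1 against day 0, 0 genes were called without the replicate block, with the authors' processed values, with no detection filter and with array weights. Array weights gave 2 genes for day 2 against day 1 and 1 on days 3 and 4, and no detection filter gave 3 for IWP-2 day 8 against day 0. The causes were not tested. Without the replicate block ETV5 on IWP-2 day 8 against day 0 had an adjusted p of 0.15, ETV4 on day 1 lost its call as given above, and no other call on the 8 genes changed.

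Over all tested genes the count without the replicate block was 204 against 362 on day 1, 765 against 1478 on day 2, 2201 against 3347 for the late days without inhibitor, 25 against 38 for IWP-2 on day 2, 332 against 560 on days 3 and 4 and 1395 against 2345 for the change between stages. Array weights gave 237 on day 1, 961 on days 3 and 4 and 167 against 76 for the time course term. That term gave 269 with median scaling, 32 with the authors' values, 25 without background correction and 13 with no filter. IWP-2 on day 2 gave 22 with the authors' values and 21 with the stricter filter, days 6 and 8 gave 1689 against 4630 with 1 value per time course and 2022 on day 6 alone, day 3 alone gave 143, and median scaling gave 3614 for the change between stages. Leaving out single arrays gave 108 to 380 genes on day 1, 452 to 1560 on day 2, 285 to 615 on days 3 and 4, 22 to 51 for IWP-2 on day 2, 3405 to 4746 on days 6 and 8, 1578 to 2654 for the change between stages and 5 to 376 for the time course term. Median scaling moved the median of all genes to -0.17 for IWP-2 on days 6 and 8, where 28.5% of called genes were higher against 48.6%, to -0.17 on IWP-2 day 8 (33.6% against 49.9%), to 0.15 for the late days without inhibitor (77.2% against 51.4%), to -0.11 with IWP-2 (34.2% against 48.5%), to 0.12 on days 3 and 4 (67.8% against 47%), to -0.31 for the change between stages (18.3% against 50.2%) and to -0.12 for the time course term (7.43% against 22.4%). Dim probes near background, such as those of ETV4 and SPRY4 in late arrays, limit what can be said of size there.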
